A study of Mus musculus with 40 samples.

Results

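The comparison described here is the change with age in the cerebellum of SCA6 84Q/+ mice, between 3 and 19 months. These mice model spinocerebellar ataxia type 6, a dominantly inherited ataxia, and are heterozygous for a Cacna1a allele in which the polyglutamine stretch was lengthened (84Q) by gene targeting. Cacna1a encodes the subunit that forms the pore of Cav2.1, a P/Q-type calcium channel. All 5 SCA6 84Q/+ libraries of 19 months were set against all 5 of 3 months. These are 10 of the 40 libraries of the series, which also holds SCA6 84Q/+ cerebella of 6 and 12 months and wild-type (WT) cerebella of the same 4 ages, with 5 libraries per group. Of the 21967 genes counted, 13264 had at least 1 CPM (assigned counts scaled to a library total of 1000000) in each library of either age, and these were tested. Each library is polyA RNA of cerebellum. The mutation sits in the endogenous gene, so no transgene promoter or Cre line limits the cells that carry it.

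The cerebellum holds very many granule cells, a single layer of Purkinje cells that provide its output, inhibitory interneurons, Bergmann glia and other astrocytes, oligodendrocytes, and microglia, the resident macrophages of brain tissue. Interferons are signaling proteins first known for antiviral defense. They act through cell surface receptors and transcription factors on genes whose promoters often hold a short repeated motif, the interferon-stimulated response element. In the aging mouse brain microglia are known to change state, and astrocytes are known to raise intermediate filament and complement genes.

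The libraries hold between 45757345 and 73537900 counts each (median 61123189), and no pair of the 10 agreed within sampling noise, so none was a copy of another. The first principal component took 45.42% of the variance and placed the 3-month libraries between −18.64 and −10.39 and the 19-month libraries between 5.13 and 22.37. Some libraries stood apart from their labels or from their group. The 3-month replicates 2 and 3 went against their genotype label at Comp and Mri1, which lie on chromosome 8 as Cacna1a does. Their Comp values of 3.62 and 3.67 CPM were below those of the other 8 libraries (7.67 to 14.3 CPM), and their Mri1 values of 27.4 and 24.3 CPM were above those of the other 8 (14.9 to 17.9 CPM). In both genes they lay near the WT libraries of 3 months, which held 2.73 to 3.75 CPM of Comp and 22 to 25.3 CPM of Mri1. Counts and values without these libraries labelled SCA6 are therefore given beside the results they change. Y-linked transcripts were present in 4 of the 5 libraries of 3 months and in 3 of the 5 of 19 months (replicates 1, 3 and 4). The labels also carry an ID number, which was 34 in all 3-month libraries and 9 (replicates 1 and 2), 12 (replicates 3 and 4) or 14 (replicate 5) at 19 months. No ID number occurs at both ages, so this number and age cannot be told apart. In bulk tissue, fewer cells of a type and less RNA per cell cannot be told apart either, and this holds for each cell type named in the results.

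In all, 889 of the 13264 genes tested differed between 3 and 19 months (6.7%) at an adjusted p of 0.05 and a log2 fold change of at least 0.3 in either direction. Transcripts of 670 genes rose (5.05%) and those of 219 fell (1.65%). The filter let in 101 of the 670 only through their 19-month level and 4 of the 219 only through their 3-month level, so the sizes of rises and falls are not compared. The median log2 fold change was 0.58 among those that rose and −0.38 among those that fell. In 1518 genes (11.4%) the 5 values of one age all lay above the 5 of the other, and these included 575 of the genes that rose and 127 of those that fell. Without the 3-month replicates 2 and 3 the counts were 421 higher and 99 lower, and 494 of these 520 genes were among the 889. The 7 libraries with Y-linked transcripts gave 525 calls. Set against all 3-month libraries, the pair of ID number 9 gave 2335 calls and the pair of ID number 12 gave 532. The number of genes called, and above all the number that fell (1140 and 95 in these pairs), thus depended on which 19-month libraries were used.

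**Figure D1:**
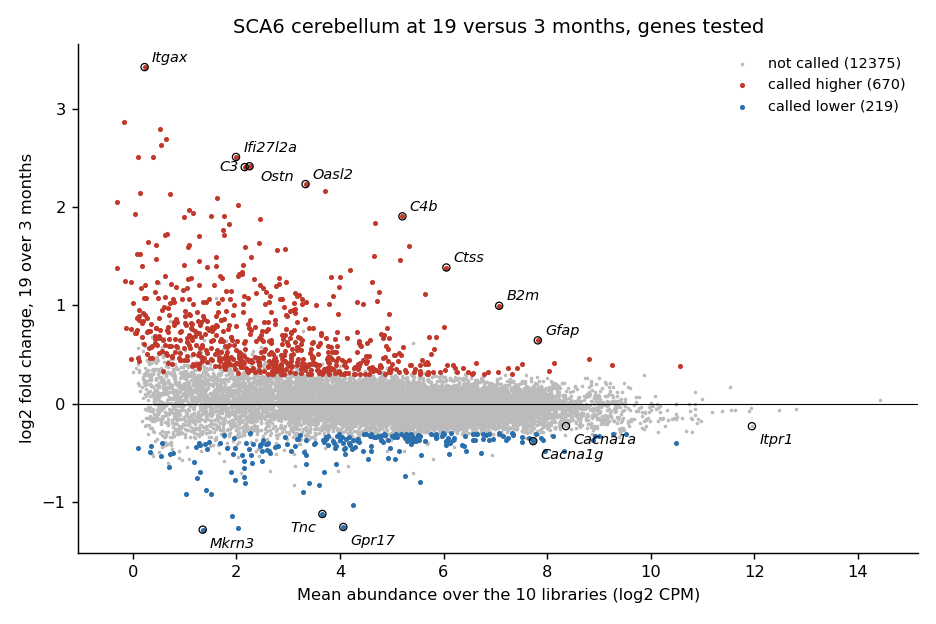
Each point is 1 of the 13264 genes tested, with its mean abundance over the 10 SCA6 libraries (log2 CPM) on the horizontal axis and its log2 fold change, 19 over 3 months, on the vertical axis. Red points are the 670 genes called higher and blue points the 219 called lower. The highest call, Itgax at 3.42, passed the filter only through its 19-month level.

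The most uniform rise was that of the interferon-induced effectors, proteins that block viral replication at many steps. All 42 effectors of the list that were in the table had every 19-month value above every 3-month value. Of these, 39 passed the filter on low counts and all 39 rose, with a median log2 fold change of 1.19 against −0.00 over all genes tested. Of these, 6 passed only through their 19-month level, and the 33 that passed at both ages had a median of 1.07. The list was also fitted with no filter, where 42 of 42 rose against 4.49% of all 18491 genes. Their summed level was 262 to 282 CPM at 3 months and 522 to 697 CPM at 19 months. Without the 3-month replicates 2 and 3, 38 of 39 rose, and with either pair of 19-month libraries alone all 39 did. Members of this list that are close copies of each other, such as the Ifit, Oas, Slfn and Gbp genes, may share reads, so the split between copies is uncertain.

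Oasl2, an oligoadenylate synthetase-like protein, had 3.77, 3.12, 3.73, 3.60 and 3.31 CPM in the 3-month replicates 1 to 5 and 15.2, 19.5, 19.1, 16.4 and 13.9 CPM in the 19-month replicates 1 to 5. Its log2 fold change was 2.23 (SE 0.11, adjusted p = 1.32e-07). The lowest old library thus held more than 3 times the level of the highest young one. Ifit1, which binds foreign RNA caps, had 5.30, 4.74, 5.26, 4.32 and 3.97 CPM at 3 months and 19.6, 27.1, 22.8, 24.4 and 14 CPM at 19 months, a log2 fold change of 2.16 (SE 0.16, adjusted p = 2.49e-06). Ifi27l2a had the highest log2 fold change (2.51, SE 0.15) of the called genes whose mean log2 CPM was at least 1, and it passed the filter only through its 19-month level. Its levels were 1.48, 1.19, 0.789, 1.49 and 0.977 CPM at 3 months and 7.14, 7.15, 6.97, 6.87 and 6.18 CPM at 19 months. In these 3 genes no library of either age came near the other age. Usp18, a protease that removes ISG15 and restrains the interferon receptor, rose by a log2 fold change of 2.02 (SE 0.19), from 1.33 to 1.82 CPM to 4.29 to 9.18 CPM. Lgals3bp, a secreted glycoprotein, rose from 11.7 to 14.4 CPM to 34.4 to 41.0 CPM (1.51, SE 0.07). Ifi27, a mitochondrial protein, and Ifitm3, which blocks viral entry, were more abundant at 3 months (29.2 to 35.6 and 8.82 to 10.4 CPM) and rose by 1.12 (SE 0.06) and 1.19 (SE 0.07).

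The promoters of these genes are shown for the best-known motif of the family, since the list turns on it. Promoter windows of 300 bases, from 250 before to 50 after the annotated start, were taken from RefSeq for GRCm38.p6 and searched on both strands for GAAA, any 2 bases and GAAA again, which reads TTTC, any 2 bases and TTTC on the other strand. Windows were found for 33 of the 42 effectors in the table, and 17 of the 33 (51.5%) held the motif. It was present in 3.61% of the 9971 genes tested that have a window, in 13.3% of the 487 that rose and in 3.14% of the 159 that fell. Of the 405 rising genes on none of the immune lists with a window, 10.1% held it. A match is a description of the sequence, and no test was made of these shares. Shown 5′ to 3′ on the strand of the gene, with the matches in capitals, are windows of 70 bases that end before the annotated start, for 4 effectors that rose by log2 fold changes of 2.16, 1.83, 1.76 and 1.63:
Ifit1, chr19:34640755-34640824, plus strand: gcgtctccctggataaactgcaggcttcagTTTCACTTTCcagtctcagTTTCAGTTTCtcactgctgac
Rsad2, chr12:26456533-26456602, minus strand: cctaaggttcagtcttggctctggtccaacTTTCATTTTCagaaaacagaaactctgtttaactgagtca
Isg15, chr4:156200857-156200926, minus strand: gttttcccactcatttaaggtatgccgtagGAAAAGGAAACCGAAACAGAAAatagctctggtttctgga
Bst2, chr8:71537563-71537632, minus strand: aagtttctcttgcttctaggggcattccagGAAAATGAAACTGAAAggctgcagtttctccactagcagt
Isg15, whose product is a ubiquitin-like tag, holds 3 overlapping matches in its window of 300 bases, Bst2, which tethers virus particles to the cell, and Ifit1 hold 2 each, and Rsad2, an antiviral radical enzyme, holds 1.

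Upstream of these effectors, 11 of the 22 genes of interferon sensing and signaling rose and none fell (median 0.44 over the 20 tested). The members that rose were nucleic acid sensors, their adaptors or regulators, and transcription factors of the response. Irf7, the factor that amplifies type I interferon production, had 2.35, 2.41, 2.26, 2.41 and 2.15 CPM at 3 months and 7.32, 9.84, 10.3, 9.76 and 6.32 CPM at 19 months (log2 fold change 1.88, SE 0.14, adjusted p = 2.58e-06). The RNA sensors Ifih1 and Ddx58 rose by 0.98 (SE 0.09) and 1.12 (SE 0.13). Zbp1, a sensor of Z-form nucleic acids, passed the filter only through its 19-month values, with 0.228 to 0.384 CPM at 3 months and 1.06 to 1.59 CPM at 19 months. The receptor subunits and kinases were not called: Ifnar1, Ifnar2, Ifngr1 and Ifngr2 had log2 fold changes of −0.06, 0.19, 0.17 and −0.09, and Jak1 and Tyk2 had −0.02 and −0.01. Without the 3-month replicates 2 and 3, 8 of the 20 rose. The genes Irf8 and Neurod1 had a count of 0 in all 10 libraries and Itgam had 0 to 3 counts, so for these the table holds no usable value.

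Antigen presentation genes rose with them. All values here are log2 fold changes. Class I molecules show peptides from inside the cell to cytotoxic T cells, and 15 of the 20 genes of this route rose (median 0.77, none lower), of which 11 were among the 16 that passed the filter at both ages. B2m, the light chain shared by class I molecules, had 91.5, 88.4, 86.5, 88.5 and 89.9 CPM at 3 months and 193, 211, 187, 156 and 158 CPM at 19 months (log2 fold change 1.00, SE 0.07, adjusted p = 2.58e-06). The 5 young values lay close together, and all old values were well above them. The heavy chain genes H2-K1, H2-Q4 and H2-Q6 rose by 0.91 (SE 0.06), 1.20 (SE 0.08) and 2.09 (SE 0.19), with the caution that heavy chain genes are near-copies whose reads may be split between them. Psmb8, a subunit of the immunoproteasome, rose by 1.39 (SE 0.12), and Nlrc5, the transactivator of class I genes, rose by 1.59 (SE 0.15). Class II molecules show outside peptides to helper T cells, and 6 of their 7 genes rose, H2-Aa by 1.13 (SE 0.11) and Cd74, the invariant chain, by 1.14 (SE 0.15). Several of the genes that rose are neighbors. On chromosome 17, 9 consecutive tested genes between 34119541 and 34316674 (GRCm38), from H2-DMa through Psmb9, Tap1, Psmb8 and Tap2 to H2-Eb1, were all called higher. The other such runs had 4 to 6 genes. Those of 4 held Ifit2, Ifit3, Ifit3b and Ifit1 on chromosome 19, Gbp5, Gbp7, Gbp3 and Gbp2 on chromosome 3, and Slfn5, Slfn8, Slfn2 and Slfn3 on chromosome 11.

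Complement genes rose in the early steps of the classical pathway and at its center. Of 23 genes in the table, 11 rose and 1 fell (median 0.74 over the 18 tested, of which 2 passed the filter only through 19 months). C4b had 14.1, 15.3, 16.8, 16.4 and 14.3 CPM at 3 months and 43.7, 64.8, 58.4, 55.0 and 72.3 CPM at 19 months (log2 fold change 1.90, SE 0.12, adjusted p = 5.79e-07). C3, on which the pathways converge, went from 1.43, 0.976, 1.90, 1.61 and 1.09 CPM to 4.29, 9.29, 7.04, 7.73 and 9.91 CPM (2.41, SE 0.23). Replicate 1 was the lowest old library in both genes, and C3 passed the filter only through 19 months. C1qa and C1qb, subunits of the C1q recognition molecule made by microglia, rose by 1.24 (SE 0.10) and 1.14 (SE 0.10), and Itgb2, a subunit of complement receptors, rose by 1.32 (SE 0.13). Csmd1, a neuronal complement inhibitor, was the member that fell (−0.34), a call lost without the 3-month replicates 2 and 3.

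Microglia markers rose as a group, including those used to identify resting cells. Of the 17 markers matched, 14 rose and none fell, with a median of 0.67, and their summed level was 189 to 200 CPM at 3 months and 298 to 369 CPM at 19 months. The homeostatic markers P2ry12, Csf1r, Tmem119 and Cx3cr1 rose by 0.36, 0.39, 0.45 and 0.71, and values were 1.28 and above in Trem2 (1.28, SE 0.09), its adaptor Tyrobp (1.29, SE 0.12), Aif1 (1.30, SE 0.13) and the protease Ctss (1.38, SE 0.08). Ctss had 33.9, 34.3, 37.1, 38.6 and 38 CPM at 3 months and 89.3, 114, 105, 86.6 and 90.4 CPM at 19 months. Without the 3-month replicates 2 and 3, 12 of the 17 rose.

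Genes known from disease-associated microglia rose further in several cases. Of 27 matched genes, 15 rose and none fell, with 4 of the 15 tested only through their 19-month level, and with no filter 19 of 27 rose. Itgax, the integrin CD11c, was at 9 to 16 counts per library at 3 months and at 67, 151, 89, 98 and 186 counts in the 19-month replicates 1 to 5. Cst7, a cystatin, and the chemokines Ccl3 and Ccl4 stayed under the filter but had summed counts of 21, 21 and 17 over the 5 young libraries and of 417, 159 and 122 over the 5 old ones. None of these 4 genes overlapped between the ages. Lyz2, lysozyme, had 14.3, 9.78, 9.38, 12.4 and 9.67 CPM at 3 months and 34.8, 64.1, 33.6, 26.2 and 44.1 CPM at 19 months (1.84, SE 0.21). Cd52, a surface glycoprotein, rose by 1.94 (SE 0.23), the phagocytic Fc receptor Fcgr3 by 0.90 (SE 0.09) and Gpnmb by 1.18 (SE 0.14). The lipid carrier Apoe (0.17), the receptor Axl (0.00) and Spp1 (0.32) were not called. Of 8 markers of border macrophages, the macrophages of meninges and vessels, 5 were tested and none was called (median 0.18). Mrc1 and Cd163 had log2 fold changes of 0.32 and −0.01. In the fit without a filter Ms4a7 rose (1.07, SE 0.24, adjusted p = 0.0116), while Pf4 (0.31) and Lyve1 (−0.39) were not called.

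Lymphocyte markers were far less abundant and all 17 stayed under the filter. Together they had 80 to 145 counts per library at 3 months and 211 to 327 at 19 months. In the fit without a filter 11 of the 17 rose, and those were mainly genes of T cells. Cd8a, the coreceptor of cytotoxic T cells, had 3, 4, 0, 5 and 0 counts at 3 months and 7, 27, 31, 10 and 15 at 19 months (log2 fold change 3.01, SE 0.68, adjusted p = 0.0138). Ccl5, a chemokine of these cells, had 4 to 10 counts at 3 months and 20 to 45 at 19 months (2.10, SE 0.31, adjusted p = 0.000701), and Cxcr6, a receptor of tissue-resident T cells, had 0 to 5 and 9 to 25 counts (2.88, SE 0.54). In Cd8a, Ccl5 and Cxcr6 each old library was above each young one. The helper T cell coreceptor Cd4 (−0.08, adjusted p = 0.93) and the B cell gene Cd79a (0.09, adjusted p = 0.85) had summed counts of 49 and 129 at 3 months and of 41 and 125 at 19 months.

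**Figure D2:**
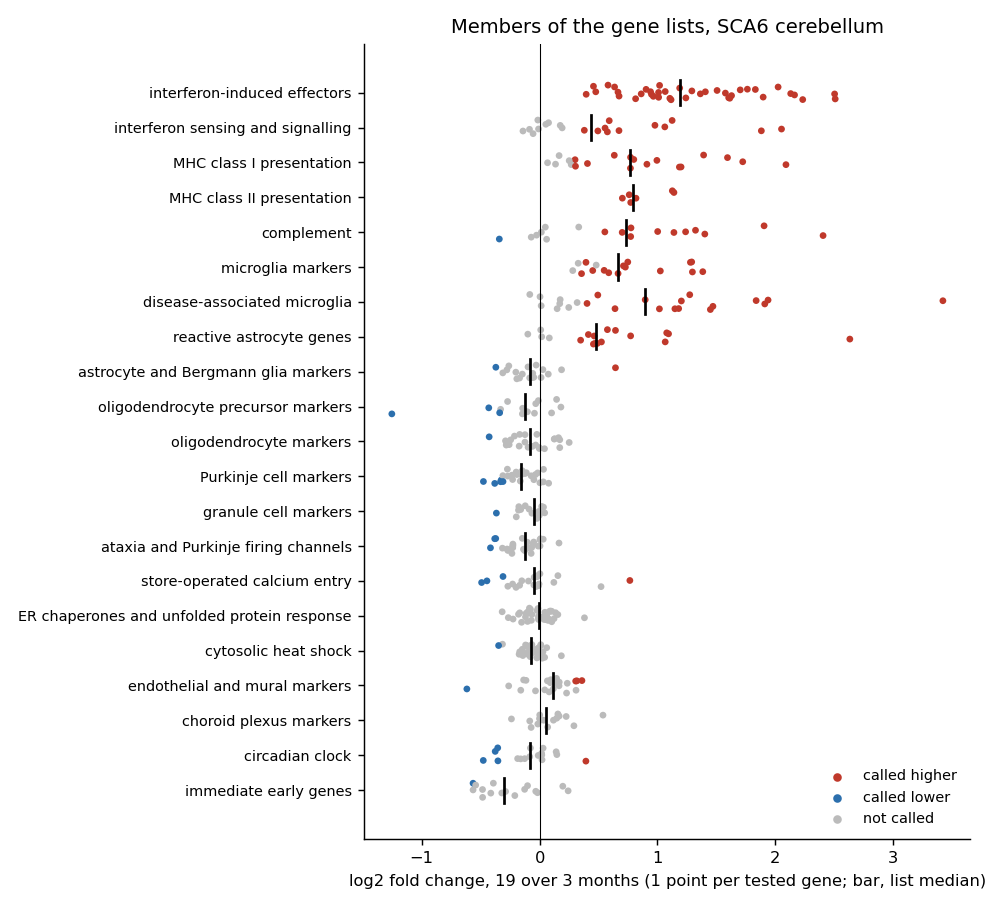
Each point is the log2 fold change, 19 over 3 months, of 1 tested member of a gene list, red if called higher, blue if called lower and gray if not called, and the black bar is the list's median. The lists of interferon, antigen presentation, complement and microglia genes lie to the right, with medians of 0.44 to 1.19. The neuronal and oligodendrocyte lists have medians between −0.16 and −0.04.

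Among astrocyte genes the markers of reactivity moved and the identity markers mostly did not pass the test. Of 22 reactive astrocyte genes 14 rose and none fell (median 0.48 over the 18 tested, of which 2 passed the filter only through 19 months). This list was less stable than the immune lists, with 9 higher calls without the 3-month replicates 2 and 3 and 6 in the libraries with Y-linked transcripts. Gfap, the intermediate filament of astrocytes, had 167, 176, 206, 160 and 164 CPM at 3 months and 193, 281, 281, 272 and 363 CPM at 19 months (0.64, SE 0.13, adjusted p = 0.00696), so that replicate 1 of the old group overlapped with the young group. Its call was lost in the libraries with Y-linked transcripts (0.47, adjusted p = 0.0826). Cxcl10, a chemokine induced by interferon, passed the filter through its 19-month values alone, with 0.277 to 0.653 CPM at 3 months and 1.93 to 2.84 CPM at 19 months. Gbp2, a GTPase that is also on the interferon list, rose by 1.07 (SE 0.09), and Aspg and the iron oxidase Cp rose by 1.08 (SE 0.11) and 0.58 (SE 0.08). Of the 20 astrocyte and Bergmann glia markers, Gfap rose, Etv4 fell (−0.37, SE 0.07) and 17 were not called. Among those, the glutamate transporters Slc1a2 and Slc1a3 had −0.06 and −0.15, Aqp4, the water channel, had 0.07 and the Bergmann glia marker Gdf10 had −0.26.

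Of 15 markers of oligodendrocyte precursors 3 fell, against 1.65% of all genes tested, and none rose. Gpr17, a receptor of cells about to differentiate, had 21.9, 21.9, 23.9, 22.5 and 25.8 CPM at 3 months and 7.35, 7.58, 12.5, 11.4 and 10.6 CPM at 19 months (log2 fold change −1.25, SE 0.14, adjusted p = 5.45e-05). All 5 old libraries lay well below the young ones, and the 2 lowest were those of ID number 9. Cacng4 (−0.34) and Neu4 (−0.43) also fell, the latter with an adjusted p of 0.113 without the 3-month replicates 2 and 3, while the precursor genes Pdgfra (−0.03) and Cspg4 (−0.10) were not called, and the median of the 15 members was −0.13. Of 25 genes of mature oligodendrocytes, Cldn11, a tight junction protein of myelin, fell from 87.8 to 106 CPM to 58.3 to 80.3 CPM (−0.43, SE 0.08), and Mbp (−0.06) and Mog (−0.29) were not called. The ID number moved with this list. Its summed level at 19 months was 5994 and 7108 CPM in the libraries of ID number 9, 9163 and 7827 CPM in those of ID number 12 and 7531 CPM in that of ID number 14, against 6730 to 8580 CPM at 3 months. The list's median was −0.33 with ID number 9 alone, where 13 of 24 tested fell, and 0.12 with ID number 12 alone, where none fell and 1 rose. None of the 24 genes of cholesterol synthesis was called (median −0.13).

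Changes in neuronal genes were small in size. Of 26 Purkinje cell markers 5 fell, against 1.65% of all genes tested, and none rose (median −0.16). The shift was broad, with 4 of the 26 above 0, against 49.9% of all genes. An unadjusted p under 0.05 was found for 18 of the 26 markers, against 3890 of the 13264 genes tested. The markers' summed level was 13700 to 14140 CPM at 3 months and 12100 to 13340 CPM at 19 months. Grid2ip, a scaffold of the parallel fiber synapse, fell from 39.5 to 48.9 CPM to 33.9 to 42.2 CPM (−0.33, SE 0.08), and the transcription factor Lhx5 fell from 6.03 to 9.06 CPM to 4.70 to 5.58 CPM (−0.48, SE 0.11). Both calls were lost without the 3-month replicates 2 and 3, where 2 of the 26 fell. The widely used markers Calb1, Pcp2 and Pvalb had log2 fold changes of −0.04, −0.15 and 0.03 and were not called. Of 18 granule cell genes Slc17a7, the vesicular glutamate transporter, fell (−0.37, SE 0.07), whereas Gabra6 (−0.01) was not called. None of 16 tested genes of interneurons and unipolar brush cells was called.

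Transcripts of ion channels linked to ataxia and to Purkinje cell firing were examined because the study measured several of them. Of 27 such genes 3 fell, against 1.65% of all genes tested, and none rose, with a median of −0.13. An unadjusted p under 0.05 was found for 15 of the 27, against 3890 of the 13264 genes tested. Cacna1a itself had 380, 374, 348, 339 and 314 CPM at 3 months and 330, 303, 271, 327 and 300 CPM at 19 months, a log2 fold change of −0.23 (SE 0.06, adjusted p = 0.0296) that did not reach the minimum of 0.3, and the ages overlapped. Cacna1g, the T-type channel Cav3.1, had 255, 240, 249, 232 and 211 CPM at 3 months and 178, 166, 178, 212 and 198 CPM at 19 months (−0.38, SE 0.07, adjusted p = 0.0038). It was also called without the 3-month replicates 2 and 3 (−0.35, adjusted p = 0.0401), but not with the 19-month libraries of ID number 12 alone (−0.30, adjusted p = 0.0715). Kcnn1, a small-conductance calcium-activated potassium channel, had 5.82, 6.25, 7.33, 5.69 and 5.70 CPM at 3 months and 3.91, 4.42, 5.33, 5.23 and 4.62 CPM at 19 months (−0.42, SE 0.11, adjusted p = 0.0268), with no overlap between the ages, but its adjusted p was 0.177 without those replicates. Itpr1, Kcnma1 and Kcnn2 were not called. Itpr1 had −0.23 (SE 0.06, adjusted p = 0.0214), Kcnma1 −0.06 (SE 0.05) and Kcnn2 0.00 (SE 0.06). With the libraries of ID number 9 alone 8 channels fell, and with those of ID number 12 alone 1 did. Of all genes tested, 1140 and 95 fell in these sets.

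Store-operated calcium entry refills the endoplasmic reticulum (ER) through Stim sensors and Orai channels. Of its 21 genes 3 fell and 1 rose, where 1.65% of all genes tested fell and 5.05% rose. Of the 3, Casq1 was tested only through its 3-month level. The gene that rose was Itpr3, an inositol trisphosphate receptor, with 22.9, 22.2, 23, 20.8 and 21.4 CPM at 3 months and 39.4, 36.7, 33.8, 42.1 and 39.8 CPM at 19 months (0.77, SE 0.06, adjusted p = 3.83e-06). Atp2a3, the calcium pump SERCA3, fell from 234 to 253 CPM to 187 to 227 CPM (−0.31, SE 0.06, adjusted p = 0.00282), a value close to the minimum of 0.3. Orai1 (−0.45, SE 0.11) and Casq1 (−0.49, SE 0.15) fell at low levels of under 6 CPM, and both calls were lost without the 3-month replicates 2 and 3 (adjusted p = 0.133 and 0.0675). Orai2, the more abundant channel at 64.7 to 80.4 CPM, had −0.20 (SE 0.05, adjusted p = 0.0133), and Stim1 had −0.17 (SE 0.04, adjusted p = 0.0141), both under the minimum size. In Stim1 every old value was below every young value.

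None of the 36 tested genes of ER chaperones and the unfolded protein response, which restores folding capacity in the ER, was called (median −0.01). Their log2 fold changes ran from −0.32 to 0.38. An unadjusted p under 0.05 was found for 7 of the 36, against 3890 of the 13264 genes tested. Hspa5, the chaperone BiP, had 270, 251, 332, 337 and 361 CPM at 3 months and 254, 280, 313, 295 and 322 CPM at 19 months (−0.11, SE 0.10, adjusted p = 0.488). The 2 ages overlapped throughout. Mean Hspa5 at 3, 6, 12 and 19 months was 310, 528, 271 and 293 CPM, so the end ages do not show the course between them. At 12 against 6 months 14 members of this list were called lower and none higher (median −0.17), where 6.45% of all genes fell. Xbp1, a transcription factor of the response, had −0.01 (SE 0.09), Atf6, an ER stress sensor, had −0.07 (SE 0.04), and Hyou1, an ER chaperone, had −0.15 (SE 0.09). Of the 31 tested cytosolic heat shock genes Dnajb1 fell (−0.35, SE 0.08), a call lost without the 3-month replicates 2 and 3. Hsp90aa1 (−0.07) and Hsp90ab1 (−0.17) were not called. In the fit without a filter Hspa1b fell (−1.21, SE 0.31, adjusted p = 0.0252), and Hspa1a had −0.93 (SE 0.28, adjusted p = 0.051). At 12 against 6 months 12 heat shock genes were called lower and 1 higher.

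**Figure D3:**
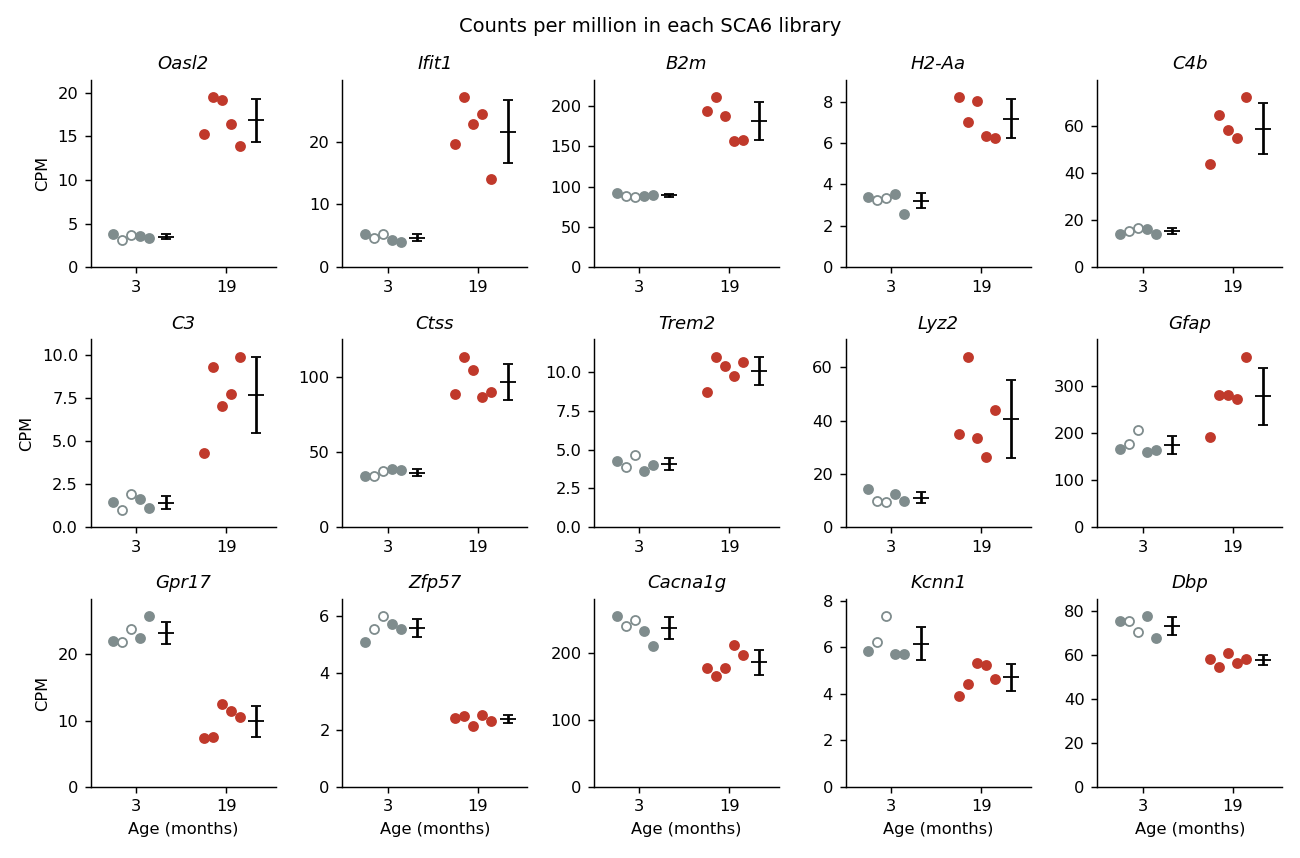
CPM in each SCA6 library for 15 of the genes described, by age in months, with replicates 1 to 5 from left to right, and a bar for the mean with its SD (n = 5). Open gray circles are the 3-month replicates 2 and 3, and in the immune genes the old libraries (red) lie above all young ones (gray), whereas Gfap and Cacna1g overlap.

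Among the called genes whose mean log2 CPM was at least 1, the 10 that fell most included Mkrn3, Zfp57, Ntf3 and Tnc. Mkrn3, a maternally imprinted ubiquitin ligase gene, had 3.56, 3.69, 3.44, 3.33 and 3.42 CPM at 3 months and 1.38, 1.62, 1.68, 1.21 and 1.45 CPM at 19 months (−1.28, SE 0.11, adjusted p = 6.53e-06). Zfp57, a zinc finger protein that keeps methylation at imprinted loci, had 5.09, 5.55, 5.98, 5.72 and 5.52 CPM at 3 months and 2.42, 2.49, 2.14, 2.50 and 2.32 CPM at 19 months (−1.26, SE 0.08, adjusted p = 1.40e-06). Both had tight values within each age and none in between. Ntf3, the neurotrophin NT-3, fell by 1.14 (SE 0.13), and Tnc, the extracellular matrix protein tenascin-C, fell by 1.12 (SE 0.13), from 15.2 to 20.6 CPM to 6.67 to 10.6 CPM. Necab3 (−1.04, SE 0.09), Ky (−0.92, SE 0.10), Pdlim3 (−0.92, SE 0.15), Rasal1 (−0.90, SE 0.13) and Kirrel2 (−0.88, SE 0.14) completed the 10 lowest, together with Gpr17. Some called genes of lower mean abundance rose more than those ranked here, such as Itgax (3.42), AC102225.2 (2.79) and Cxcl10 (2.63). Among the 10 highest under the same limit, the one that is no immune gene was Ostn, the secreted peptide osteocrin. It had 1.30, 1.54, 1.51, 1.17 and 1.95 CPM at 3 months and 9.56, 8.17, 8.32, 6.22 and 8.50 CPM at 19 months (2.41, SE 0.15). The other 9 were Ifi27l2a, C3, Oasl2, Ifit1, H2-Q6, Usp18, Slfn8 (1.97, SE 0.15), Cd52 and the helicase Ddx60 (1.91, SE 0.17). Of these, Ifi27l2a, C3, H2-Q6, Slfn8 and Cd52 passed the filter only through 19 months, so their place in this order depended on it. The 670 genes that rose had a lower median abundance (log2 CPM of 2.46) than all genes tested (5.07).

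The counts of the remaining lists stand beside the 6.7% of all genes that were called. Of 18 clock genes 4 fell and 1 rose. Dbp, a clock output factor, had 75.7, 75.3, 70.3, 77.6 and 67.9 CPM at 3 months and 58.4, 54.4, 60.8, 56.5 and 58.2 CPM at 19 months (−0.38, SE 0.05, adjusted p = 0.000244), and Ciart (−0.48, SE 0.07), Nr1d1 (−0.36, SE 0.07) and Per1 (−0.35, SE 0.10) also fell, the Per1 call being lost without the 3-month replicates 2 and 3. The sources used here give no time of day for the dissections, and its part in these values was not tested. Of 16 tested immediate early genes Jun fell (−0.56, SE 0.11; adjusted p = 0.0576 without those replicates), and the list's median was −0.31 in all libraries, 0.12 with ID number 9 alone and −0.66 with ID number 12 alone. Vascular genes gave Pecam1 (0.31), Cdh5 (0.32) and Cldn5 (0.36) as higher and Mfsd2a, a lipid transporter of the barrier, as lower (−0.62, SE 0.14), but none of the 23 was called without the 3-month replicates 2 and 3. Of 24 matrix genes the fibroblast genes Dcn (0.51), Lum (0.42) and Slc6a13 (0.52) rose and Nid1, a basement membrane protein, fell (−0.39, SE 0.06), and of these Nid1 alone was called without those replicates. Of the 14 tested cell cycle genes Mcm6 (0.58) and Tyms (0.39) rose and Ccnd1 fell (−0.39), and of the 12 tested genes linked to senescence Cdkn2c rose (0.43), with the calls of Tyms and Cdkn2c lost without those replicates. None of 16 choroid plexus genes and none of 10 ependymal genes was called, with summed choroid plexus levels of 4475 to 5840 CPM at 3 months and 4674 to 6587 CPM at 19 months, and Slc4a1 was the 1 red blood cell gene of 6 called (0.59).

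The change with age was then followed in libraries that this comparison does not use. Between 6 and 12 months, in 10 other SCA6 84Q/+ cerebella, 9.36% of 13222 genes rose and 6.45% fell. Of the 670 genes that rose between 3 and 19 months 639 were tested there, 566 had a log2 fold change above 0 (88.6%, against 49.5% of all genes tested) and 344 were called higher (53.8%). Of the 219 that fell, 190 of 218 were below 0 and 71 were called lower (32.6%). In the opposite direction, 10 of the 639 were called lower and 5 of the 218 were called higher. In this interval too the ID numbers differ between the ages. Replicate 2 of 12 months stood apart, with 1916 CPM of the interferon effectors against 457 to 539 CPM in the other 4. Without it 312 of 640 and 60 of 218 were called in the same direction, and 8 and 4 in the opposite one. Of 38 effectors 35 were higher, with a median of 0.81.

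The summed levels showed when the changes appeared. Interferon effectors were at 262 to 282 CPM at 3 months, 271 to 333 CPM at 6 months, 457 to 1916 CPM at 12 months and 522 to 697 CPM at 19 months. Microglia markers were at 189 to 200, 187 to 210, 253 to 381 and 298 to 369 CPM at these ages, and lymphocyte markers at 1.30 to 2.57, 1.86 to 2.23, 2.44 to 4.75 and 3.72 to 5.38 CPM. In effectors and microglia markers the 3- and 6-month libraries overlapped with each other, and all libraries of 12 and 19 months lay above them. Purkinje cell markers were at 13700 to 14140 CPM at 3 months, 13850 to 14230 at 6 months, 13460 to 14970 at 12 months and 12100 to 13340 at 19 months. Among SCA6 libraries, those of 19 months alone thus lay below all younger ones. In WT these markers were at 12990 to 15620 CPM at 3 months and 10470 to 13500 CPM at 19 months, with 7 called lower (median −0.20), so the fall was not particular to SCA6. In both genotypes the lowest libraries of 19 months were those of ID number 12. They held 12110 and 12100 CPM in SCA6 and 10470 and 11570 CPM in WT. The 19-month WT libraries of ID numbers 9 and 10, at 13430 to 13500 CPM, lay within the WT range of 3 months.

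**Figure D4:**
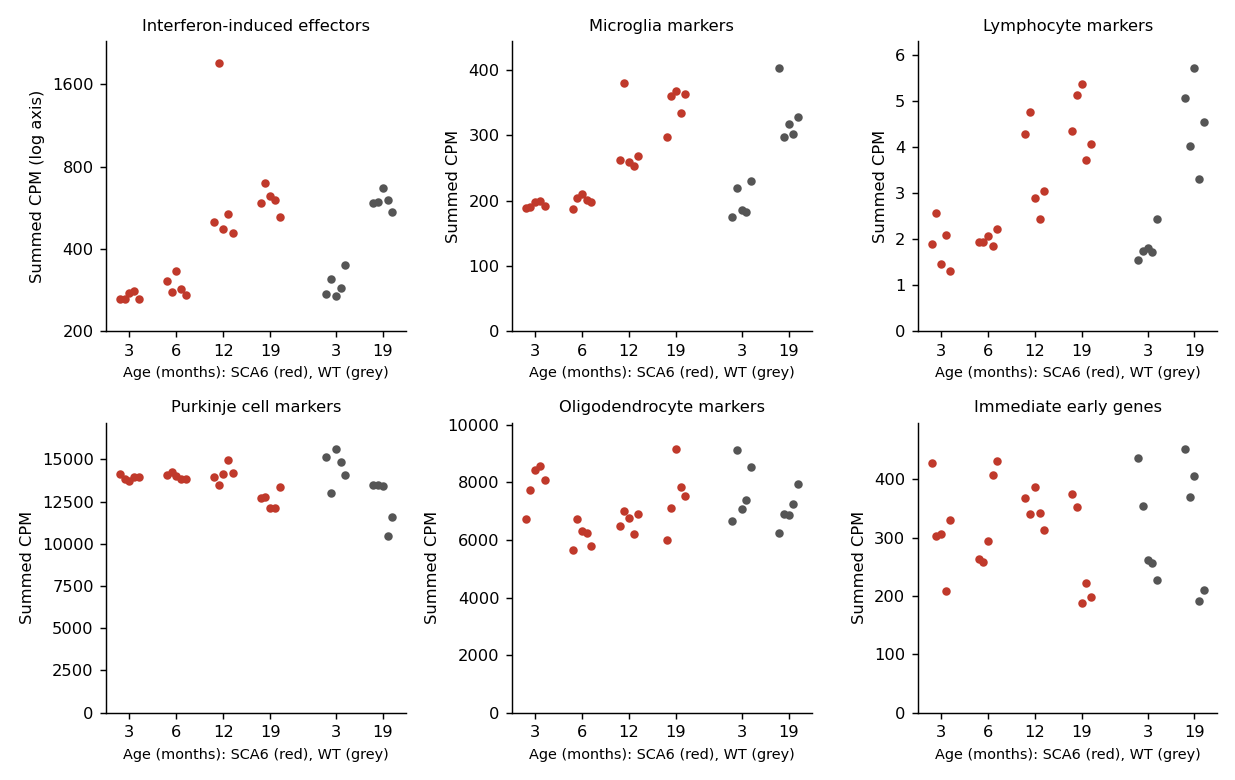
Summed CPM of all members of 6 gene lists in each library of SCA6 (red; 3, 6, 12 and 19 months) and WT (gray; 3 and 19 months), with replicates 1 to 5 from left to right. Interferon effectors (log axis) and microglia markers are higher from 12 months on, with 1 library of 12 months at 1916 CPM of the effectors. Lymphocyte markers are higher at 19 months, while a SCA6 library of 12 months (2.44 CPM) lies below one of 3 months (2.57 CPM). Oligodendrocyte and immediate early genes vary as much within an age as between ages.

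To ask whether the SCA6 84Q/+ allele altered the change with age, the same contrast was fitted in WT and the difference between the genotypes was tested. In WT 5.68% of 13311 genes rose and 1.98% fell between 3 and 19 months. No gene differed between the genotypes in its change with age (0 of 13311, 0.0%, smallest adjusted p = 0.721). At an unadjusted p under 0.05 there were 880 such genes (6.61%), and DESeq2 also gave 0 calls with 938 at that level. Of the 670 genes that rose in SCA6 84Q/+ 664 had a WT log2 fold change above 0 (99.1%, against 51.9% of all genes tested) and 452 were called higher in WT as well, and of the 219 that fell all 219 were below 0 in WT and 113 were called lower. None was called in opposite directions. The genes were chosen on their SCA6 84Q/+ values, so a smaller median in WT (0.50 against 0.58 for those that rose) does not show a difference. Over the 13264 genes the log2 fold changes of the 2 genotypes had a Pearson correlation of 0.813 across genes, which are not independent replicates.

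The genes with the smallest p for the difference were Gabra2, Mfap3l, Ifi44, Cdh5, Bche and AC102225.2, each with an adjusted p of 0.721. Gabra2, a GABA receptor subunit, had a log2 fold change of −0.23 (SE 0.04) in SCA6 84Q/+ and −0.62 in WT. Ifi44, an interferon effector, had 1.90 (SE 0.17) and 1.04, Cdh5, the endothelial cadherin, had 0.32 and −0.07, and Bche, butyrylcholinesterase, had 0.34 and −0.25. Among the 39 interferon effectors the median of the genes' own differences was 0.25, with 14 at an unadjusted p under 0.05, such as Oasl2 (2.23 in SCA6 84Q/+ and 1.70 in WT, unadjusted p = 0.00521) and Ifit1 (2.16 and 1.62, unadjusted p = 0.0216). B2m showed 1.00 and 0.65 (unadjusted p = 0.0082). None of these passed the correction. The summed effector level was 270 to 351 CPM in WT at 3 months and 549 to 667 CPM in WT at 19 months, which overlapped at both ages with the SCA6 84Q/+ ranges given above. Among the genes of interferon sensing, antigen presentation, complement and microglia, the median over each list of the gene's own difference between the genotypes was 0.05 to 0.11, and among the reactive astrocyte genes it was 0.23, with 5 of 18 at an unadjusted p under 0.05. Cacna1a had −0.23 in SCA6 84Q/+ and −0.08 in WT (unadjusted p for the difference 0.17), and Gpr17 had −1.25 and −1.23.

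**Figure D5:**
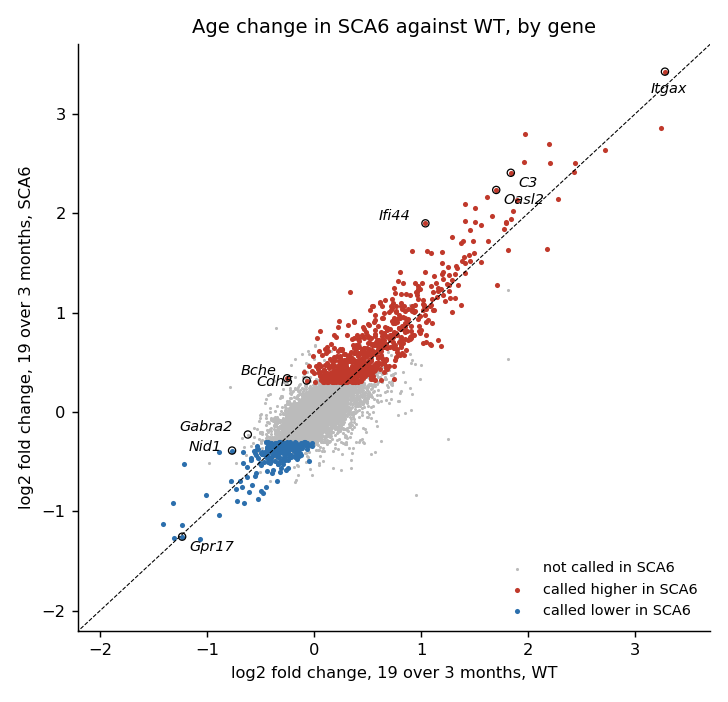
Each point is a gene, with its log2 fold change of 19 over 3 months in WT on the horizontal axis and in SCA6 84Q/+ on the vertical axis, red if called higher and blue if called lower in SCA6 84Q/+, and the dashed line marks equal change. The called genes lie along the line in both directions, and the labelled Ifi44, Bche, Cdh5 and Gabra2, which have some of the smallest p for a difference, lie off it.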

How the data were processed

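The authors sequenced polyA RNA of cerebellum (150 bp paired-end reads), trimmed reads with Trimmomatic, aligned them to mm10 with STAR and counted reads per gene with HTSeq, whose strand setting is not stated in the labels or methods. The values deposited by the authors are raw counts for 21967 genes in 40 libraries; their methods state that outliers were removed. All 10 SCA6 libraries of 3 and 19 months were used, with 0 per-sample columns unused. Whether the libraries of a group are 1 mouse each is not stated in the labels, so p-values measure the spread between these samples.

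Differences in counts were tested by edgeR 4.0.16, by quasi-likelihood (R 4.3.3, TMM scaling, Benjamini-Hochberg adjustment over all genes tested) on genes with CPM of at least 1 in every library of either group, and a gene was called where its adjusted p was at most 0.05 and its log2 fold change at least 0.3 in size. The difference between genotypes was an interaction in a fit of 4 groups (20 libraries). DESeq2 1.42.0, limma voom 3.58.1, other scaling, filters, covariates and sets of libraries were alternatives. Scripts were tested on simulated data. CPM are counts scaled to a library total of 1000000.

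The members, gene lists and tests were chosen with earlier results of these data known. Named genes are, of the called genes whose mean log2 CPM was at least 1, the 10 that rose most and the 10 that fell most, per list the called members with the smallest adjusted p (at most 5), Cacna1a and genes the study measured, the 6 smallest interaction p and label checks; other members are named as examples of a list, chosen after their values were seen. Clustered protocadherin beta genes (22, all without counts) could not be tested. Some genes are not reported here. Promoters came from RefSeq (GRCm38.p6), gene positions from GENCODE vM21.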

Additional observations from a re-analysis of the deposited data

Results flagged for a closer look

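In the named genes, 214 groups of 5 libraries were checked for a library far from the others, and 13 had a gap to the nearest library above 0.71 of the group's range, where chance gives about 1 in 20. Among the 3-month libraries, Slfn8 was low in replicate 4 (0.703 CPM, others 0.869 to 0.928) and Ifi27 was high there (35.6 CPM, others 29.2 to 30.9). Pdlim3 and Fcgr3 were high in replicate 1 (3.44 and 6.19 CPM), and Psmb8 and Cxcl10 were high in replicate 3 (1.93 and 0.653 CPM). Grid2ip was low in replicate 5 (39.5 CPM, others 47.1 to 48.9). Among the 19-month libraries, replicate 5 was low in Ifi27l2a (6.18 CPM) and high in Etv4 (12.6 CPM) and Itpr1 (4207 CPM, others 3468 to 3610). Ntf3 was low in replicate 2 (1.88 CPM), Lum in replicate 3 (8.37 CPM) and Gbp2 in replicate 4 (8.29 CPM).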

How the results depend on the processing

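The 889 calls became 1639 (956 higher, 683 lower) with no minimum fold change, 520 (421 higher, 99 lower) when the 3-month replicates 2 and 3 were left out, 525 in the libraries with Y-linked transcripts, 2335 (1195 higher, 1140 lower) with the 19-month libraries of ID number 9 alone and 532 with those of ID number 12 alone; the last 2 sets were chosen after the data were seen, and the cause of these shifts was not tested beyond the smaller number of libraries. Leaving out 1 library at a time gave 674 to 1029 calls. DESeq2 gave 964, voom 866, RLE scaling 882, no filter 1057, the joint fit of 8 groups 911 and the Y-linked covariate 839. The difference between genotypes gave 0 calls under every alternative run, including each library left out. The 2090 calls of 12 against 6 months became 5109 with no minimum fold change and 1748 to 2555 with 1 library left out. Same-numbered libraries of 3 and 19 months correlated at 0.342, 0.045, 0.237, −0.01 and −0.346, so the numbers did not pair them, and the replicate block gave 857 calls. Of 107 named genes, 70 kept their direction and side of the threshold in all 22 settings; the direction turned in uncalled genes near 0. Kcnn2 gave −0.004 with voom and with ID number 12 alone, −0.024 without SCA6 3-month replicates 2 and 3, −0.007 in the Y-linked libraries and −0.027 to 0.043 with 1 library left out. Xbp1 gave 0.012 with voom, 0.022 with ID number 12 and −0.062 to 0.051 with 1 library left out. With ID number 9 alone, Kcnma1 gave 0.025.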
